A study of Homo sapiens with 4 samples.

Results

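ZNF symbols name much of the human family of C2H2 zinc finger genes. A gene was taken as an expressed member when it was annotated as protein-coding, its symbol was ZNF followed by a number and at most 1 letter, and its level reached 1 FPKM in the lactate input or the vehicle input. FPKM counts fragments relative to the gene's length and to the library total. The members were thus chosen by their input levels. The rule kept 95 of 450 protein-coding genes with such a symbol, in a table of 24483 genes. The members were set beside the 5562 protein-coding genes that pass the same minimum, which include them. Because the rule uses the input levels, every contrast that contains an input is given here as a description.

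The libraries came from PANC-1, an established human line of pancreatic ductal adenocarcinoma labelled wild-type. RNA bound to the methyltransferase NSUN2 was precipitated with an antibody (IP), and total lysate RNA served as input. The 4 groups were the IP and the input of cells given 30 mM sodium lactate for 24 h, and the IP and the input of cells given water as vehicle for the same time. Each group held 1 library, so the differences below lack a replicate check and carry no p-value. A precipitation with a control antibody was not analysed here. The series title connects lactylation, NSUN2 and RNA m5C with perineural invasion, the growth of tumour cells along nerves.

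A C2H2 zinc finger is a short fold held by a zinc ion that usually reads DNA bases, and most ZNF proteins carry several in a row. Many, above all those encoded in clusters on chromosome 19, begin with a KRAB domain that recruits the corepressor TRIM28 and silences transposable elements and other targets. A few members bind RNA instead or as well. NSUN2 places 5-methylcytosine (m5C) on transfer RNA and on other RNA, and CNGGG has been described as a sequence around its sites in messenger RNA.

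Library totals recovered from the FPKM values ranged from 11175432 reads in the lactate input to 17626197 in the vehicle input. Nuclear genes took 13.9% of the reads in the lactate IP and 20.9% in the lactate input, against 30.3% in the vehicle IP and 31.3% in the vehicle input. The remainder was mitochondrial, with MT-RNR2 alone at 83.7% of the lactate IP. FPKM values of nuclear genes therefore ran lower in lactate libraries, and results over all members are also given under 2 other scalings where these alter them. Values of single members are as deposited unless another scaling is named. Of 7 markers of the ductal line, 5 reached 1 FPKM in an input. KRT7 stayed at or below 0.369 FPKM in the inputs and MSLN was listed at 0 in both. Of 16 markers of other cell types, 7 were in the table and 2, COL1A1 and MBP, reached 1 FPKM. Their summed level was 3.27 FPKM in the lactate input and 4.32 FPKM in the vehicle input.

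The first transcribed bases of the 5 members highest in vehicle IP over vehicle input, and of 5 low members, are shown. All have a RefSeq start window. ZNF706, which ranks among the 5 lowest, was left out, and ZNF354A stands in its place. These bases are given because the 5′ ends are the part of these RNAs that can be read here. They are RefSeq sequences of GRCh38.p14, from the first start listed for each symbol, 5′ to 3′ on the gene's strand, with each CNGGG in capitals. The first 5 lines are the members highest in the IP.
ZNF106 (chr15:42491112-42491141, minus strand): ggtgtgcgcctgcgcgttggcggcggctgt
ZNF787 (chr19:56121266-56121295, minus strand): acttccggcCTGGGcgcccgtccccctgac
ZNF362 (chr1:33256492-33256521, plus strand): agaagtgaacagcaggcgacccggaaggtt
ZNF652 (chr17:49362221-49362250, minus strand): gctcgcctccctccctgccccctccggcac
ZNF581 (chr19:55643649-55643678, plus strand): ctctttcggccggcgccgccagttcCTGGG
ZNF146 (chr19:36215106-36215135, plus strand): gagtgcgcaagcgcagcgcaccgagtggac
ZNF217 (chr20:53593810-53593839, minus strand): attcaaacccggccggcccgagtggtgtca
ZNF22 (chr10:45000923-45000952, plus strand): acttccggcggcgcgggaggcgcccagcga
ZNF639 (chr3:179322876-179322905, plus strand): ggcgcaaggcctccggCAGGGggcgcgggc
ZNF354A (chr5:178730630-178730659, minus strand): agacgccgtCGGGGcggagCCGGGtcgcga
Both groups hold starts with and without the motif. ZNF106 shows none in these 30 bases but holds CNGGG within its first 50. A listed start need not be the outer end of a gene. The ZNF581 bases begin at 55643649, inside its RefSeq span of chr19:55635003-55645623. Over the first 50 transcribed bases, read on the sense strand, CNGGG stood in 27 of 86 members with a window (31.4%), against 33.5% of 27305 windows of all genes. On either strand of the whole 300-base window it stood in each of the 86 members and in 92.7% of all windows, and the median GC content of that window was 62.0% in members and 58.3% in all. A match is a description of these letters and not an m5C site.

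Member levels were low in all libraries. The median member stood at 0.693 FPKM in the lactate IP and 1.19 FPKM in the lactate input, against 1.74 FPKM in the vehicle IP and 1.87 FPKM in the vehicle input. In reads, the median member had 76 and 101 in the lactate IP and input, against 147 and 234 in the vehicle IP and input. Together the members took 0.644% of nuclear reads in the lactate IP (95% Wilson interval 0.633 to 0.655%) and 0.676% in the lactate input (0.665 to 0.686%). They took 0.606% in the vehicle IP (0.599 to 0.614%) and 0.663% in the vehicle input (0.656 to 0.670%). Their share of the nuclear reads was thus lower in each IP than in its own input. Intervals cover counting error only, since each group held 1 library. The library kit adds no molecular identifiers, so copies of 1 molecule count as separate reads and the intervals may be too narrow.

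The members with the highest input levels were ZNF146, ZNF217, ZNF281, ZNF639 and ZNF644. ZNF146, a protein made almost wholly of zinc fingers and reported as overexpressed in pancreatic carcinoma, had 26.7 FPKM in the lactate input and 39.9 FPKM in the vehicle input. ZNF217, a transcriptional corepressor subunit and oncogene of the amplified 20q13 region, had 14.6 FPKM in the lactate input and 20.2 FPKM in the vehicle input. ZNF281, a regulator linked to epithelial-mesenchymal transition, had 11.3 FPKM in the lactate input and 12.7 FPKM in the vehicle input. These genes stand far above the bulk of the family: 60 of the 95 members averaged under 2 FPKM over the inputs and 3 reached 10. At the edge of the rule, ZNF256, ZNF331 and ZNF391 entered with a higher input level of 1.03, 1.03 and 1.04 FPKM, and ZNF184, ZNF524 and ZNF585B stayed out at 0.994, 0.994 and 0.993 FPKM.

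Lactate against vehicle in the inputs asks whether lactate altered the levels of these RNAs. Changes are log2 ratios of FPKM + 1, which understate the change of genes at such low levels, and values of 1 or more, or of -1 or less, count as 2-fold on that scale. No member was at least 2-fold higher (background 0.036% of protein-coding genes) and no member was at least 2-fold lower (background 3.07%). The member median was -0.41 and the protein-coding median was -0.43, and the members' offset of 0.02 turned to -0.01 under both a median ratio scaling and equal nuclear totals. Those scalings moved the protein-coding median itself to -0.02 and -0.01. Relative to that median no member was 2-fold higher or lower (background 0.144% each). Of the 95 members, 51 lay above the protein-coding median and 44 below it.

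The members at the upper end were ZNF25 at 0.34, ZNF761 at 0.16 and ZNF830 at 0.14. ZNF25 had 1.07 FPKM in the lactate input, against 0.640 FPKM in the vehicle input (51 and 48 reads). Its log2 ratio of reads per total, with no FPKM added, was 0.74 with a 95% counting interval of 0.15 to 1.34. It was the only member whose interval lay above 0, against 1.01% of protein-coding genes, while the intervals of 77 members lay below 0, against 79.3% of protein-coding genes. At the lower end ZNF480 had 1.68 FPKM in the lactate input, against 3.70 FPKM in the vehicle input, a log2 ratio of -0.81. ZNF256 had 0.162 FPKM in the lactate input, against 1.03 FPKM in the vehicle input, which rests on 4 and 40 reads. No input contrast of a member reached 2-fold on the scale used.

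IP over input asks which of these RNAs were recovered with NSUN2. In lactate cells 5 members were at least 2-fold higher in the IP (background 9.73%) and 13 were at least 2-fold lower (background 23.7%). In vehicle cells 8 members were at least 2-fold higher (background 19.8%) and 16 were at least 2-fold lower (background 19.6%). The member median was -0.48 in lactate cells, against a protein-coding median of -0.31, and -0.29 in vehicle cells, against a protein-coding median of -0.003. The members thus lay below the protein-coding median by 0.17 in lactate cells and by 0.29 in vehicle cells. Relative to these medians 5 members were 2-fold higher and 8 lower in lactate cells (background 16.1% each), and 8 were higher and 16 lower in vehicle cells (background 19.8% and 19.5%). With a minimum of 3 FPKM, which 28 members pass, the distance was -0.10 in lactate cells and -0.034 in vehicle cells. Over all 450 ZNF genes with no minimum it was -0.019 in lactate cells and -0.030 in vehicle cells. With at least 50 reads in both libraries, a setting chosen after seeing the data, it was -0.058 in lactate cells and -0.29 in vehicle cells. The members stayed below the median under the median ratio scaling (0.18 and 0.21) and with equal nuclear totals (0.25 and 0.26). The higher and lower counts moved with the scaling. The median ratio scaling gave 5 higher and 22 lower in lactate cells (background under that scaling 9.01% and 29.0%). In vehicle cells it gave 2 higher and 19 lower (background 7.87% and 28.7%). Equal nuclear totals gave 7 higher and 9 lower in lactate cells (background under that scaling 20.4% and 16.5%). In vehicle cells they gave 6 higher and 13 lower (background 19.1% and 16.8%).

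In both conditions 58 members lay below their input (background 48.2% of protein-coding genes) and 22 above it (35.4%). Another 13 were above it in vehicle cells only (14.5%) and 2 in lactate cells only (1.85%). The same 5 members were at least 2-fold higher in both conditions (background 9.22%) and 10 were at least 2-fold lower in both (background 17.0%). Across the 95 genes the contrasts correlated with Pearson's r of 0.90 and Spearman's rho of 0.83. This is a description over genes, which are not independent replicates.

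**Figure D1:**
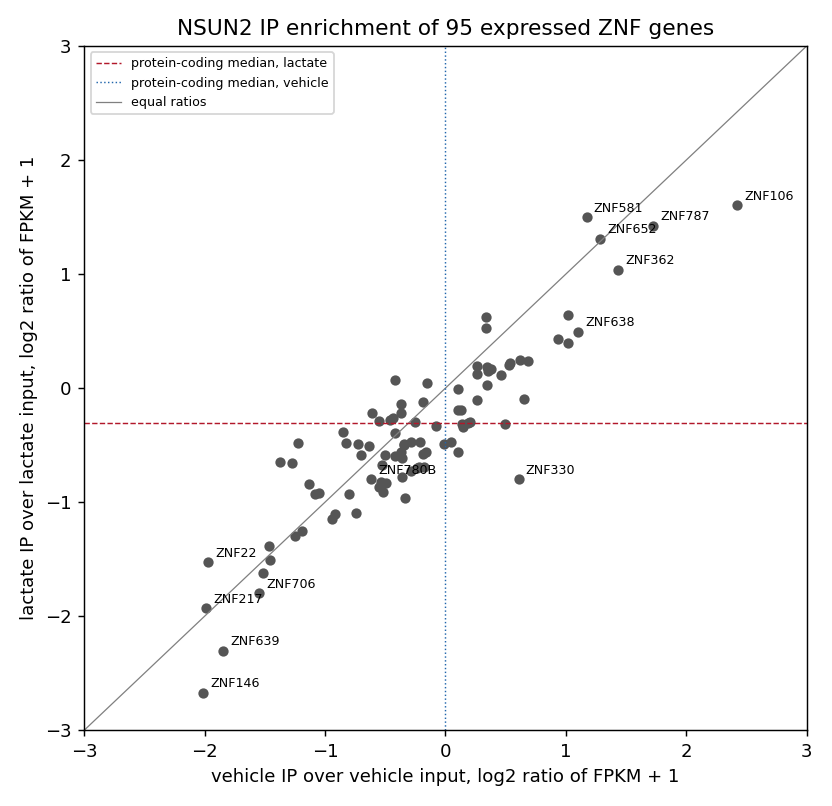
Log2 ratio of FPKM + 1 of IP over input in lactate cells (vertical axis) against vehicle cells (horizontal axis), 1 point per member, 95 members, 1 library per group. Dashed and dotted lines mark the protein-coding medians of -0.31 and -0.003, the diagonal marks equal ratios, and ZNF330 lies apart at -0.80 in lactate cells and 0.61 in vehicle cells.

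The 5 members higher in both IPs were ZNF106, ZNF787, ZNF362, ZNF652 and ZNF581. ZNF106, an RNA-binding zinc finger protein (chr15:42412823-42491141 in RefSeq, GRCh38.p14), had 5.68 FPKM in the lactate IP and 1.19 FPKM in the lactate input, against 11.3 FPKM in the vehicle IP and 1.29 FPKM in the vehicle input. Its log2 ratio of IP over input was 1.61 in lactate cells and 2.42 in vehicle cells. The read ratios without a pseudocount were 2.25 (counting interval 2.01 to 2.50) in lactate cells and 3.13 (2.95 to 3.32) in vehicle cells. Both IP levels stood above both input levels, and the input levels nearly coincided.

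ZNF787 had 4.68 FPKM in the lactate IP and 1.12 FPKM in the lactate input, against 8.54 FPKM in the vehicle IP and 1.89 FPKM in the vehicle input, for log2 ratios of 1.42 in lactate cells and 1.72 in vehicle cells. ZNF652, a repressor that works with the corepressor CBFA2T3, had 6.10 FPKM in the lactate IP and 1.86 FPKM in the lactate input, against 9.38 FPKM in the vehicle IP and 3.27 FPKM in the vehicle input. Its log2 ratios were close, at 1.31 in lactate cells and 1.28 in vehicle cells. In ZNF787 and ZNF652, as in ZNF106, each IP level exceeded both input levels.

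ZNF362 reached 1.04 in lactate cells and 1.44 in vehicle cells, and ZNF581 reached 1.497 in lactate cells and 1.17 in vehicle cells. ZNF581 rests on 145 and 26 reads in the lactate IP and input and on 148 and 69 in the vehicle IP and input. The RefSeq span of ZNF580 (chr19:55641002-55643470) lies inside that of ZNF581 (chr19:55635003-55645623), and no source used here says whether the authors' counting used strand or split shared reads. ZNF580, at 0.64 in lactate cells and 1.02 in vehicle cells, and ZNF581 are therefore uncertain.

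In vehicle cells ZNF638, ZNF580 and ZNF462 also reached 2-fold, and in lactate cells they did not. ZNF638, a nuclear nucleic-acid-binding protein that acts with the HUSH silencing complex, had 3.47 FPKM in the lactate IP and 2.17 FPKM in the lactate input, against 9.75 FPKM in the vehicle IP and 4.02 FPKM in the vehicle input. Its log2 ratio was 0.49 in lactate cells and 1.10 in vehicle cells. ZNF462, a large C2H2 protein mutated in a developmental disorder, stood at 0.40 in lactate cells and 1.02 in vehicle cells. Whether these differ between conditions was not testable with 1 library per group.

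At the other end stood the most abundant members. ZNF146 (chr19:36214723-36238768) had 3.35 FPKM in the lactate IP and 26.7 FPKM in the lactate input, against 9.14 FPKM in the vehicle IP and 39.9 FPKM in the vehicle input. Its log2 ratio was -2.67 in lactate cells and -2.01 in vehicle cells. ZNF217 (chr20:53567071-53597702) had 3.10 FPKM in the lactate IP and 14.6 FPKM in the lactate input, against 4.33 FPKM in the vehicle IP and 20.2 FPKM in the vehicle input. Its log2 ratio was -1.93 in lactate cells and -1.99 in vehicle cells. In both genes every IP level lay under every input level.

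ZNF639, encoded in the amplified 3q26 region, had 0.859 FPKM in the lactate IP and 8.16 FPKM in the lactate input, against 2.30 FPKM in the vehicle IP and 10.9 FPKM in the vehicle input, for log2 ratios of -2.30 in lactate cells and -1.84 in vehicle cells. ZNF354A stood at -1.62 in lactate cells and -1.52 in vehicle cells. ZNF706, a short protein known to repress Klf4 in mouse embryonic stem cells, stood at -1.80 in lactate cells and -1.55 in vehicle cells. ZNF22 stood at -1.53 in lactate cells and -1.97 in vehicle cells, on 6 and 57 reads in the lactate IP and input and 12 and 169 in the vehicle IP and input. ZNF367 had 1 read in the lactate IP and 24 in the lactate input, against 0 reads in the vehicle IP and 38 in the vehicle input. Set against a floor of 3 reads in the vehicle IP library, its vehicle IP level was at least 9.79-fold lower than its vehicle input level.

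**Figure D2:**
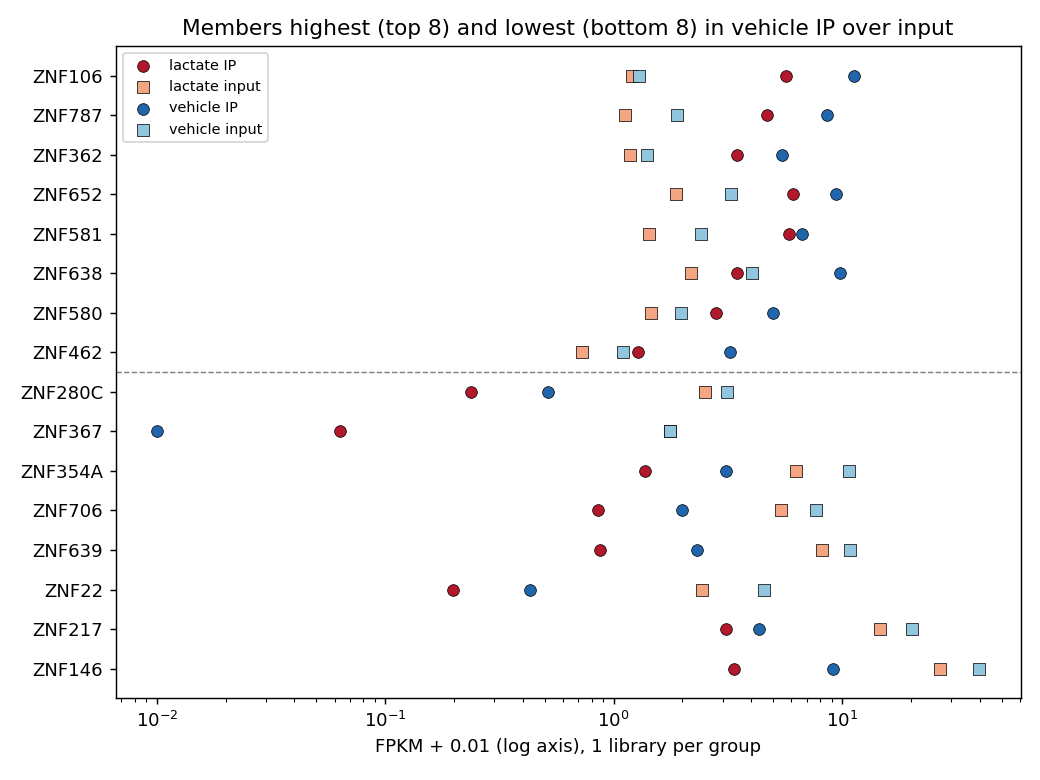
FPKM + 0.01 on a log axis in the lactate IP, lactate input, vehicle IP and vehicle input, 1 library each, for the 8 members highest and the 8 lowest in vehicle IP over vehicle input. In the upper 8 genes the vehicle IP lies to the right of the vehicle input, in the lower 8 both IPs lie to the left of both inputs, and ZNF367 is listed at 0 in the vehicle IP.

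Members with higher input levels had lower IP over input. Across members the log2 ratio of vehicle IP over input and the log2 mean input level correlated with r of -0.42 and rho of -0.31, a description of values that share the vehicle input, which the rule for members also used. Among members averaging under 2 FPKM in the inputs the median log2 ratio was -0.31 in lactate cells and -0.18 in vehicle cells. Protein-coding genes of the same input level had medians of 0.04 in lactate cells and 0.30 in vehicle cells. Among the 10 members of 5 FPKM or more the median was -1.46 in lactate cells and -1.38 in vehicle cells, against protein-coding medians of -0.997 in lactate cells and -0.60 in vehicle cells. In each band of input level, and in both conditions, the members' median lay below that of protein-coding genes.

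**Figure D3:**
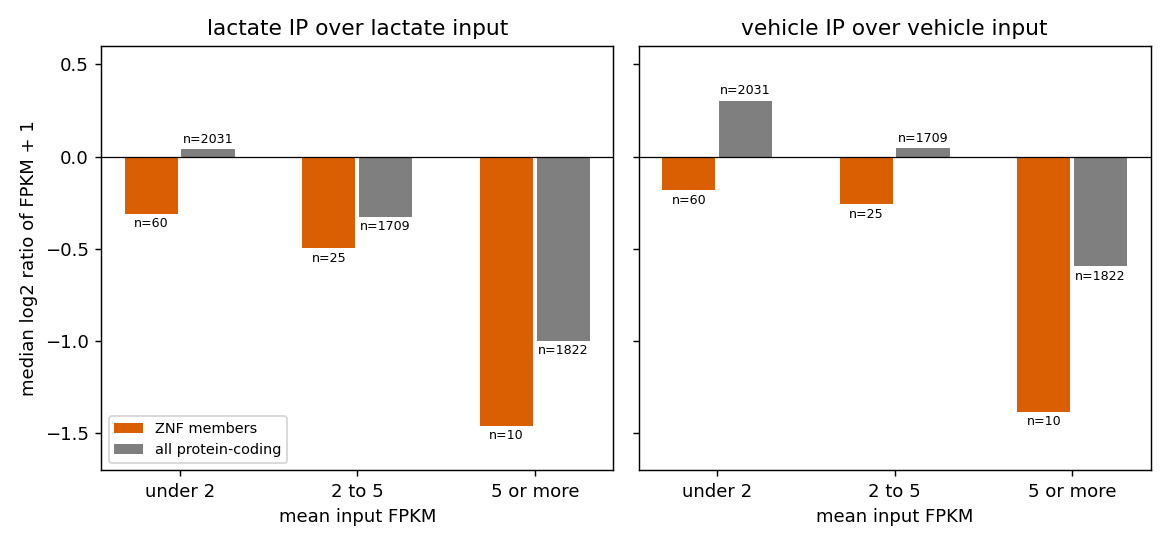
Median log2 ratio of FPKM + 1 of IP over input, in lactate cells (left panel) and vehicle cells (right panel), by mean input FPKM, for ZNF members and for all protein-coding genes of the same level, with the number of genes at each bar. The members' bar lies below the protein-coding bar in all 6 pairs, and both are lower at higher input levels.

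Members on chromosome 19 and elsewhere had close medians. The 36 members on chromosome 19, where the KRAB gene clusters lie, had a median IP over input of -0.40 in lactate cells and -0.36 in vehicle cells, and the 59 on other chromosomes had -0.48 in lactate cells and -0.28 in vehicle cells. Among the 74 members of at least 4500 bp the median was -0.47 in lactate cells and -0.31 in vehicle cells. Protein-coding genes of that length had medians of -0.31 in lactate cells and 0.004 in vehicle cells. The 13 members from 2500 bp to under 4500 bp had -0.51 in lactate cells and -0.53 in vehicle cells. Protein-coding genes of that middle length had -0.35 in lactate cells and -0.03 in vehicle cells. The order turned for the 8 members under 2500 bp, at 0.15 in lactate cells and 0.30 in vehicle cells. Protein-coding genes under 2500 bp had -0.25 in lactate cells and 0.04 in vehicle cells. Lengths were recovered from the FPKM values and ran from 868 to 21258 bp, with a median of 6266 bp.

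Members better known for other roles were spread over the range. The gene ontology term RNA binding is held by 4 members: ZNF106 and ZNF638, described above, lay above their inputs, and ZNF207 and ZNF326 lay below them. ZNF207, a mitotic protein of kinetochores and a splicing regulator, stood at -0.73 in lactate cells and -0.28 in vehicle cells. ZNF326, a subunit of the DBIRD complex that couples elongation to splicing, stood at -0.56 in lactate cells and -0.16 in vehicle cells. ZNF143, a factor bound at promoters and chromatin loop anchors, stood at -0.67 in lactate cells and -0.53 in vehicle cells. ZNF451, a SUMO ligase, stood at -0.47 in lactate cells and -0.21 in vehicle cells. ZNF281 stood at -1.15 in lactate cells and -0.94 in vehicle cells. CTCF and YY1, architectural zinc finger factors with other names, lay above their inputs, CTCF at 0.78 in lactate cells and 1.45 in vehicle cells and YY1 at 0.55 in lactate cells and 0.87 in vehicle cells.

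Partners of KRAB repressors gave a mixed picture. Of 30 listed, 19 reached the minimum, and their median IP over input was -0.19 in lactate cells and -0.16 in vehicle cells. At the 2-fold level 4 lay above and 6 below their input in lactate cells (background 9.73% and 23.7% of protein-coding genes), and 6 lay above and 3 below it in vehicle cells (background 19.8% and 19.6%). TRIM28, the corepressor itself, had 6.27 FPKM in the lactate IP and 2.33 FPKM in the lactate input, against 10.98 FPKM in the vehicle IP and 3.29 FPKM in the vehicle input, for log2 ratios of 1.13 in lactate cells and 1.48 in vehicle cells. MPHOSPH8, a HUSH subunit, stood at 1.14 in lactate cells and 1.98 in vehicle cells. UHRF1, a reader of DNA methylation, stood at -2.72 in lactate cells and -2.23 in vehicle cells.

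Zinc finger genes with other symbols were described in the same way. Of 98 other C2H2 genes (ZBTB, ZSCAN, ZKSCAN, ZFP, KLF and SP symbols), 32 reached the minimum, with medians of -0.50 in lactate cells and -0.17 in vehicle cells. At the 2-fold level 4 lay above and 5 below their input in lactate cells (background 9.73% and 23.7%), and 5 lay above and 8 below it in vehicle cells (background 19.8% and 19.6%). Of 18 ZC3H genes, whose CCCH fingers bind RNA, 6 reached the minimum. Their medians were -0.35 in lactate cells and 0.15 in vehicle cells. These lists were not tested against the members.

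Lactate IP over vehicle IP compares the precipitated RNA directly and uses no value that chose the members. No member was at least 2-fold higher (background 0.0%) and 8 were at least 2-fold lower (background 26.8%). With a pseudocount of 0.1 FPKM in place of 1 the count was 46 members, against 51.5% of protein-coding genes. The member median was -0.57 and the protein-coding median was -0.74, an offset of 0.17 that turned to -0.005 under the median ratio scaling to -0.03 with equal nuclear totals and to 0.029 with the pseudocount of 0.1 FPKM. Both scalings left 1 member, ZNF330, at least 2-fold lower (background 0.575% under each). It stood at -1.06 under the median ratio scaling and -1.16 with equal nuclear totals. Relative to the protein-coding median no member was 2-fold higher (background 0.863%) or 2-fold lower (background 1.29%).

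The 8 members were ZNF330, ZNF638, ZNF480, ZNF146, ZNF644, ZNF573, ZNF121 and ZNF24, with ZNF330 lowest at -1.69. ZNF330, a nucleolar protein first found as an autoantigen, had 0.363 FPKM in the lactate IP, against 3.39 FPKM in the vehicle IP, on 14 and 117 reads. Its read ratio without a pseudocount was -3.22 with a counting interval of -4.14 to -2.42. ZNF638 stood at -1.27 and ZNF480 at -1.23. ZNF644, a partner of the histone methyltransferases G9a and GLP, had 3.98 FPKM in the lactate IP, against 9.45 FPKM in the vehicle IP, a log2 ratio of -1.07. At the upper end ZNF674 stood at 0.08 on 16 and 9 reads and ZNF776 at 0.06 on 22 and 16 reads, so the upper end consists of genes with few reads.

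Enrichment in lactate cells minus enrichment in vehicle cells takes each IP against its own input. No member was higher by at least 1 on the log2 scale (background 0.36%), and 1 member, ZNF330, was lower by at least 1 (background 5.39%). The member median was -0.20 and the protein-coding median was -0.31. That offset of 0.11 shrank to 0.01 under either scaling. Relative to the protein-coding median 2 members were higher by at least 1 (background 1.62%) and 1 was lower (background 1.11%). The lowest members after ZNF330 at -1.41 were ZNF106 at -0.82, ZNF136 at -0.80 and ZNF292 at -0.74. The highest were ZNF776 at 0.74, ZNF674 at 0.73 and ZNF181 at 0.62. ZNF181 had 0.252 FPKM in the lactate IP and 0.971 FPKM in the lactate input, against 0.363 FPKM in the vehicle IP and 2.30 FPKM in the vehicle input. NSUN2 itself stood at -0.24 and CDCP1, a surface glycoprotein, at -0.57.

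Peaks place the enrichment along the genes. The authors' lists, called per condition from 1 IP and 1 input, held 285 peaks in 76 members in lactate cells (80.0% of members, background 75.5%) and 534 peaks in 89 members in vehicle cells (93.7% of members, background 87.3%). With the authors' q of at most 0.05, 49 members kept a peak in lactate cells (background 58.8%) and 80 in vehicle cells (background 78.2%). With the authors' fold of at least 2, 74 members had a peak in lactate cells (background 72.8%) and 88 in vehicle cells (background 82.8%). With introns left out, 59 had one in lactate cells (background 60.9%) and 84 in vehicle cells (background 78.3%). The libraries differed in depth over nuclear genes, so list lengths are not read as a change. In all, 74 members had a peak in both lists, and ZNF22, ZNF302, ZNF511 and ZNF776 had none. Of the lactate peaks 62.5% overlapped a vehicle peak by at least 1 base, and of the vehicle peaks 32.8% overlapped a lactate peak. The matching shares over protein-coding genes and their peaks were not computed, so these values describe the members alone.

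Introns held most of the members' peaks. Their share was 62.8% in lactate cells and 56.6% in vehicle cells, against 60.5% and 59.1% of the peaks of protein-coding genes. 5′ UTRs held 10 of the members' lactate peaks (3.51%) and 21 of their vehicle peaks (3.93%), against 1.93% and 2.40% for protein-coding genes. With q of at most 0.05, 5 lactate peaks and 12 vehicle peaks of members lay in 5′ UTRs (3.91% each), against 2.05% and 2.36% for protein-coding genes. By RefSeq, 27 of 285 lactate peaks and 37 of 534 vehicle peaks lay outside the RefSeq span of the member named in the authors' annotation. A ZNF131 lactate peak at chr5:43076167-43076805, for example, lies where RefSeq has LOC100506639, a lncRNA gene.

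**Figure D4:**
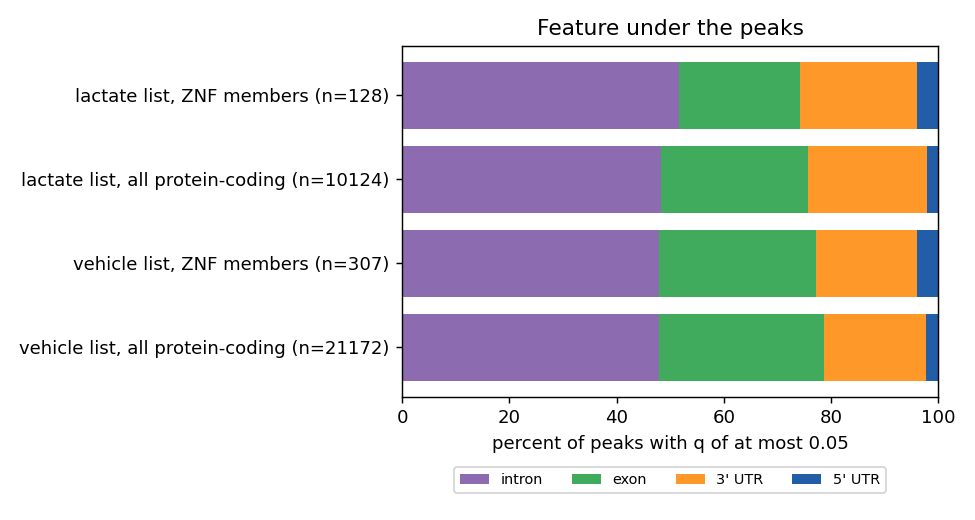
Share of peaks (percent) by annotated feature, for peaks with q of at most 0.05, in the lactate and vehicle lists, for ZNF members and for all protein-coding genes of the same minimum. Introns hold 51.6% of the members' lactate peaks and 47.9% of their vehicle peaks, and 5′ UTRs hold 3.91% in both.

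The peak with the highest fold in either list lay in an intron of ZNF780B, a KRAB zinc finger gene on chromosome 19. It spanned chr19:40040713-40043403 in the lactate list, with the authors' fold of 26.0, and chr19:40042515-40043370 in the vehicle list, with a fold of 37.8, and its q was listed as 0 in both. At the gene level ZNF780B lay below its inputs. It had 1.28 FPKM in the lactate IP and 2.95 FPKM in the lactate input, against 2.58 FPKM in the vehicle IP and 4.50 FPKM in the vehicle input, for log2 ratios of -0.80 in lactate cells and -0.62 in vehicle cells. A strong intronic peak and a gene value below input thus stood side by side.

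ZNF124, a KRAB zinc finger gene on chromosome 1, showed the same pair of values. It had 13 lactate peaks, all in introns, with folds up to 16.8 at chr1:247133967-247134513, and 16 vehicle peaks. Its gene value was -0.83 in lactate cells and -0.49 in vehicle cells. ZNF217, with the gene values near -2 given above, carried an exon peak of fold 14.0 in vehicle cells at chr20:53582535-53583323. No source used here says whether the authors' gene values count intronic reads. ZNF367 had 0 reads in its vehicle IP gene value. Yet it held 2 vehicle peaks, both in introns, with folds up to 7.28. Its gene value thus left out the reads under those peaks. Other members were not checked in this way.

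In other genes peaks and gene values pointed the same way. ZNF106 had 13 peaks in the lactate list and 18 in the vehicle list, mostly outside introns, with folds up to 17.8 at chr15:42447944-42448712 in lactate cells and 22.4 at chr15:42439175-42440012 in vehicle cells. ZNF652 had an exon peak of fold 23.7 at chr17:49317073-49317682 in lactate cells and of fold 13.4 at chr17:49317091-49317769 in vehicle cells. ZNF787 had its highest peak in the 3′ UTR, with a fold of 5.04 in lactate cells and 7.97 in vehicle cells. Most peaks of any member lay in ZNF638, with 21 in the lactate list and 38 in the vehicle list, of which 8 and 3 lay outside its RefSeq span.

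In 3 of the 86 members with a start window a vehicle peak covered the first RefSeq start: ZNF638, ZNF106 and ZNF280C. The share of protein-coding genes with such a peak was not computed, so the count has no background. The ZNF638 peak at chr2:71331766-71331987 had a fold of 4.95 and a q of 0.000114. The ZNF106 peak at chr15:42490794-42491202 had a fold of 4.25 and a q of 0.00224. The ZNF280C peak had a q of 0.816. The ZNF638 promoter is shown because a peak reaches over its start. The sequence holds 250 bases before and 14 after the start, chr2:71331532-71331795, plus strand, RefSeq GRCh38.p14, with the first 30 bases of the peak in capitals.
ZNF638: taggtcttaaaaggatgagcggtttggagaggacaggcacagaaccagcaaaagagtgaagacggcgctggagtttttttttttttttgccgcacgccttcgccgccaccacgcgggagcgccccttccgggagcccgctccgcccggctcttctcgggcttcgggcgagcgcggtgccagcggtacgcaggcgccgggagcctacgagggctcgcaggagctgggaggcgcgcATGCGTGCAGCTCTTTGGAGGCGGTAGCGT
The peak thus begins 16 bases before the listed start, and the capitals hold no CNGGG. The peak runs on beyond the bases shown, to position 71331987, so the capitals cover only part of it.

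The authors' deposited comparison of the IP libraries gave M, the log2 ratio of lactate IP over vehicle IP read density, at 637 peaks of 116484 that overlap members' peaks. The median M was -0.41 over the members' peaks and -0.50 over all peaks. Of members' peaks 13.7% had M of at least 1 (background 13.9%) and 31.1% had M of at most -1 (background 38.6%). At peaks with a mean log2 density A above the median of all peaks, the median M was -0.25 over members' peaks and -0.20 over all peaks, so the order of the medians turned.

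The ZNF780B peaks went both ways in this comparison. Its intronic peak had a density of 1192 in the lactate IP, against 453 in the vehicle IP, the highest of any member peak in both, with M of 1.40. Of its other peaks 3 had M of 0.72, 0.93 and 1.00, and 5, with densities of at most 22.5 in the lactate IP and 25.8 in the vehicle IP, had M of -0.20, -0.57, -1.08, -1.29 and -1.43. Summed over 9 peaks, ZNF780B had 2041 in the lactate IP, against 956 in the vehicle IP. ZNF652 had 437 in the lactate IP, against 283 in the vehicle IP, at its exon peak, with M of 0.62. ZNF330 had 5.80 in the lactate IP, against 31.5 in the vehicle IP, at its exon peak, with M of -2.44, the same direction as its gene value. These ratios compare single libraries and carry no replicate error.

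**Figure D5:**
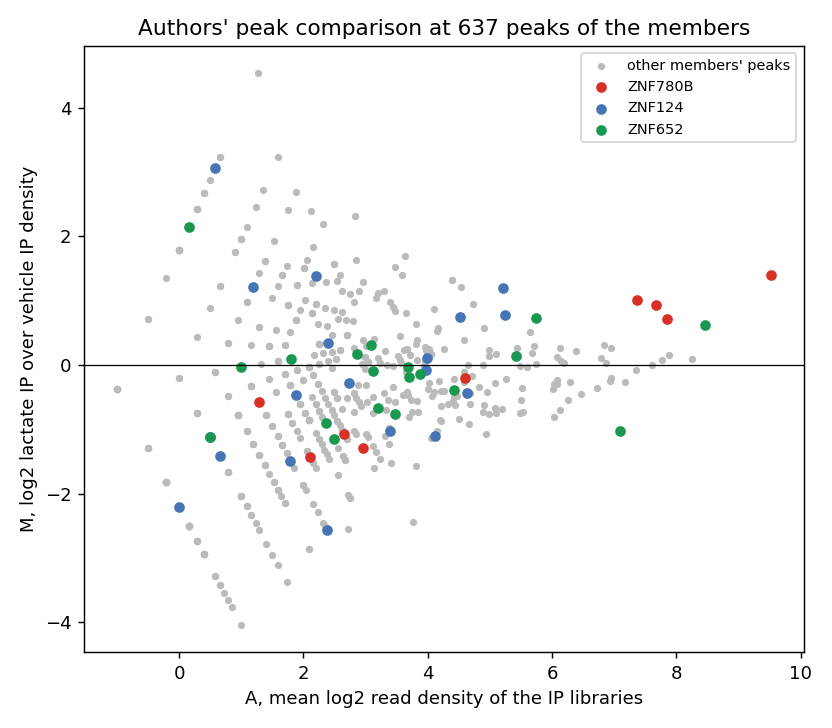
M, the authors' log2 ratio of lactate IP over vehicle IP density, against A, the mean log2 density, at 637 peaks of the members. ZNF780B (red) holds the peak of highest density, with M of 1.40, while most peaks of high density lie near 0, and the spread widens at low A where few reads stand behind a value.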

How the data were processed

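RNA precipitated with NSUN2 and input RNA were measured in 4 libraries, 1 per group. Per the submitters' processing notes, reads were handled with HISAT2 2.1.0 and MACS2 2.2.7.1 among other tools, on build GRCh38. No source used here names the counting tool, its strand setting or the annotation release. The authors deposited gene levels in FPKM. They deposited peak lists with a fold enrichment (ratio), p-value, q-value and −log10 values, per the file headers, and a comparison of the IP libraries with read density (signal), log2 M and A, and a P column used here only as a score, per the file headers.

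Reads were recovered from the FPKM values: of 72387 values above 0, all but 4 came out whole within 1e-06. Where a gene's reads share a factor in every library, that factor is lost. A pseudocount of 1 FPKM was added, and 95% exact binomial counting intervals were taken on read ratios without it. RefSeq positions matched by symbol for all 95 members. Python 3.11.15, pandas 2.3.3 and scipy 1.17.1 were used, and the recovery was tested on simulated data. Named members were the 5 highest input levels, the 5 highest and lowest of each of 5 comparisons, the 5 highest-fold and most numerous peaks of each list and the 3 on each side of the minimum. Members named for other reasons were chosen after their values were seen. The members and lists were chosen with earlier results of these data known.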

Additional observations from a re-analysis of the deposited data

Results flagged for a closer look

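In 3 members IP over input lay on opposite sides of 0 in lactate and vehicle cells, with counting intervals that left out 0 on both sides. The difference was not tested, since each group held 1 library. The share of protein-coding genes that meet this rule was not computed, so the count has no background. Leaving the intervals aside, 13 members lay above their input in vehicle cells only, against 14.5% of protein-coding genes. Another 2 did so in lactate cells only, against 1.85%. ZNF330 had a log2 ratio of -0.80 in lactate cells and 0.61 in vehicle cells, on 14 and 39 reads in the lactate IP and input and 117 and 84 in the vehicle IP and input. ZNF136, a KRAB zinc finger gene, had -0.31 in lactate cells and 0.49 in vehicle cells, on 58 and 68 reads in the lactate IP and input and 131 and 92 in the vehicle IP and input. ZNF195 had -0.30 in lactate cells and 0.20 in vehicle cells, on 296 and 297 reads in the lactate IP and input and 616 and 665 in the vehicle IP and input.

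ZNF330 stayed on opposite sides of 0 with pseudocounts of 0.1 and 5 FPKM, with the median ratio scaling (-0.99 in lactate cells and 0.14 in vehicle cells) and with equal nuclear totals (-0.65 in lactate cells and 0.58 in vehicle cells). ZNF136 stayed on opposite sides under both scalings too, but at -0.04 in lactate cells and 0.45 in vehicle cells with equal nuclear totals. ZNF195 did not: it stood at -0.43 in lactate cells and -0.27 in vehicle cells with the median ratio scaling, and at 0.10 in lactate cells and 0.22 in vehicle cells with equal nuclear totals.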

How the results depend on the processing

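No paired analysis was possible because each group held 1 library and the labels give no replicate numbers. A planned comparison by number of zinc fingers was not run, since protein sequences were not used here. Of 164 results over members recomputed under another setting, 112 kept within the spread or within 1.5 times the count and 52 moved. A turn of sign after passing 2-fold was looked for only in named members. Of 780 values of 39 named members 273 moved and 0 turned sign in that way. Values short of 2-fold could not count as turned, and a change of pseudocount cannot turn the sign of a single ratio. The count of 0 was thus largely fixed in advance and is no measure of stability. Values below are the members' median log2 ratio minus the protein-coding median, or counts of members at least 2-fold apart. Background is the share of protein-coding genes under the same setting.

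With a pseudocount of 0.1 FPKM, 13 members were lower in lactate input over vehicle input, 42 in lactate IP over input, 29 in vehicle IP over input and 46 in lactate IP over vehicle IP; the difference of enrichments had 2 higher and 7 lower, lactate IP over input stood at -0.34 and lactate IP over vehicle IP at 0.029. The protein-coding shares under that pseudocount were 12.7%, 36.4%, 26.8% and 51.5% for the lower counts, and 1.996% higher and 14.7% lower for the difference. With 5 FPKM, lactate IP over input had 0 higher and 3 lower (background 1.58% and 8.59%) with an offset of -0.021. Vehicle IP over input had 1 higher and 3 lower (background 8.05% and 8.50%) with an offset of -0.13. Lactate IP over vehicle IP had 0 lower (background 6.90%) and the difference 0 lower (background 0.719%). The median ratio scaling gave 22 lower in lactate IP over input (background 29.0%) and 2 higher in vehicle IP over input (background 7.87%). It gave 1 lower in lactate IP over vehicle IP (background 0.575%) with an offset of -0.0045. Equal nuclear totals gave 1 lower in lactate IP over vehicle IP (background 0.575%) with an offset of -0.032.

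With no minimum (450 genes) vehicle IP over input stood at -0.030 with 34 higher (background 13.2%). Lactate IP over input had 15 higher (background 5.56%) and the difference 2 lower (background 2.63%). With at least 3 FPKM (28 members) vehicle IP over input stood at -0.034 with 2 higher and 9 lower (background 15.8% and 31.3%). Lactate IP over input then had 1 higher (background 7.48%) and the difference 0 lower (background 6.17%). The members' offset in vehicle IP over input thus depended on the minimum. Peaks with q of at most 0.05 left 51.6% of members with a lactate peak (background 58.8%) and 84.2% with a vehicle peak (background 78.2%). Leaving out introns left 62.1% with a lactate peak (background 60.9%). At peaks of A above the median the median M was -0.25, with 43 peaks at 1 or more and 82 at -1 or less. These were 10.4% and 19.8% of the members' peaks, against 9.55% and 20.5% of all peaks above that A. M minus its median over all peaks gave a median of 0.086, with 134 and 122 peaks.

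Chosen after seeing the data were 3 further settings. Under 2 FPKM of mean input (60 members), lactate IP over input stood at -0.35 with 2 lower (background 2.95%). Vehicle IP over input stood at -0.48 with 6 lower (background 4.23%), and lactate IP over vehicle IP at 0.082 with 2 lower (background 13.0%). At least 4500 bp (74 members) gave 2 higher in lactate IP over input (background 9.67%). It gave 4 higher in vehicle IP over input (background 19.8%) and 0 lower in the difference (background 4.09%). At least 50 reads gave 2 higher and 8 lower in lactate IP over input (52 members, background 9.78% and 23.0%). It gave 6 lower in vehicle IP over input (72 members, background 16.5%) and 0 lower in the difference (52 members, background 5.88%).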
